A study of Homo sapiens with 8 samples.

Results

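Stretches of the genome in which 6 or more neighbouring CTCF peaks of untreated HT1080 cells all lacked a counterpart after treatment with CBL0137 are described here. The peaks of control cells on chromosomes 1 to 22 were sorted by position, a peak was called lost when no peak of treated cells overlapped it by any length and kept otherwise, and the members were selected on an unbroken run of at least 6 lost peaks on a chromosome. This rule gave 324 runs with 2334 member peaks, out of 46054 control peaks on these chromosomes and 47470 in the whole list. Lost means only that the treated list held no called peak there, and signal below the cutoff of the peak caller was not examined. HT1080 is a human fibrosarcoma line, and it was left untreated (control) or exposed to CBL0137, a curaxin that intercalates into DNA, at 3 µM for 6 h. CTCF was immunoprecipitated from 2 biological replicates of each condition and sequenced beside 2 input libraries of each, 8 libraries in all. Control cells differed from treated cells in the drug alone as far as the labels state, and all libraries come from this line, so the runs describe 1 cell line. Each deposited list pools the replicates of a condition, holds no depth and no value per replicate, and gives no replicate error. The numbers below are therefore descriptions of these lists without a test, and the 95% intervals cover counting error or the spread over peaks only.

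CTCF is a zinc-finger protein that binds a long DNA motif and halts loop extrusion by cohesin. Its sites therefore often lie at loop anchors and at borders of topologically associating domains. Neighbouring CTCF sites can stand in for each other at such borders. The strength of a peak is given here as the fold enrichment of ChIP over input in control cells (fold in what follows), as the authors' peak caller computed it from both replicates.

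The sites below show sequences from lost runs and from kept peaks between runs. Each is the best match to the 12-base core of the CTCF consensus within 400 bp around a peak centre, searched on both strands, with the core in capitals and 9 flanking bases on each side, 5′ to 3′ on the strand of the match, from the reference of the files' build (hg19). The first group holds 3 members of the longest run, which lies on chromosome 5, followed by the most alike pair of sites in that run.
POLK coding exon, chr5:74880647-74880676: agaactttaCCAACAGAGGGCattgctttc
POC5 intron, chr5:74977259-74977288: taaagttgaACAGTAGATGGCattttattc
near POC5, chr5:75031187-75031216: gtcccagccACACCAGGTGGCagtgtgaac
between POC5 and SV2C, chr5:75182208-75182237: ccctctgagCCACCAGAGGAGgccagagtc
before SV2C, chr5:75370504-75370533: ccctttgagCCACCAGAGGAGgctagagac
The first 3 of these had 1 mismatch to the consensus and a control fold of 19.6, 30.5 and 46.1. The pair between POC5 and SV2C, in the peaks starting at 75182151 and 75370351, was identical in 27 of 30 bases, and its peaks had folds of 12.3 and 29.3. Each core of the pair had 2 mismatches.

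The next group holds 4 of the exact consensus matches among members of the 12 longest runs (of 9 runs tied at 11 peaks, the first 5 by position). It shows that a site without a mismatch can lie in a lost run.
BRINP3 intron, chr1:190405927-190405956: taagagcttCCACCAGATGGCacccagtgt
before KCNH8, chr3:19088111-19088140: tcaaataatCCAGTAGGTGGCagaaatgta
SEMA3A intron, chr7:84084062-84084091: ttgatcttgCCACCAGATGGCaggaaaaat
between SEMA3A and SEMA3D, chr7:84544102-84544131: tgtgaaaaaCCACTAGGTGGCccaaaggtg
These peaks had control folds of 39, 17.5, 12 and 19.6. The other exact matches in these runs lay in the run at ASAP1, are not shown and had lower folds, 9.81 and 8.23. The last group holds the 3 exact matches among the 7 kept peaks that separate a pair of runs by themselves, so that a kept site is seen with lost peaks on either side. The other 4 of these kept peaks had 1 to 3 mismatches, and the kept peaks beside the longest run had 3 and 2.
kept, chr10:87002111-87002140: ttgtgggacCCACCAGGGGGCagaactaag
kept, chr18:38515561-38515590: ttgtcccaaCCACTAGGGGGCtctttgtct
kept, chr4:28688427-28688456: gcagcctgtCCAGTAGGGGGCagaaaggct
These kept peaks had control folds of 15, 33.5 and 40.1. At position 9 of the core, counted from 1 at its 5′ end, the consensus allows G or T, and the exact matches of all peaks were counted by that letter after the sites above had been seen. G stood at that position in 21 of 93 members with an exact match (22.6%, Wilson 95% interval 15.3% to 32.1%), in 187 of 709 other lost peaks (26.4%, 23.3% to 29.7%) and in 3192 of 5554 kept peaks (57.5%, 56.2% to 58.8%). Members and other lost peaks thus had overlapping intervals at this letter, and both lay below the kept peaks, which also had the higher fold.

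Loss was common before runs were considered. Of the 46054 control peaks, 19649 had no overlapping treated peak (42.7%), and they formed 10378 runs of any length, of which 5761 were lost peaks with kept neighbours on both sides. The members made up 5.07% of the control peaks and 11.9% of the lost peaks. To set the number of runs against what the share of lost peaks alone gives, the fates of the peaks were taken in every order within each chromosome, and the exact mean over these orders was computed. It was 193 runs with 1326 members, so the observed runs were 1.68 times and the members 1.76 times this mean. When each peak was given the lost share of its chromosome and of its decile of control fold, the mean was 235 runs with 1661 members, and the ratio for runs 1.38. When each peak was given the lost share of its decile of control fold and of its decile of GC content in the surrounding 100 kb, a setting chosen after seeing the data, the mean was 301 runs and the ratio 1.08. These lost shares were taken from the same peaks.

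Short runs were rarer and long runs more frequent than the order mean, though the ratio did not rise steadily with length. There were fewer lone lost peaks than the mean (5761 against 6303) and fewer pairs (2382 against 2672), and runs of 4 were about level (519 against 512). Runs of 6 numbered 145 against 104, runs of 7 numbered 74 against 47.6 and runs of 8 numbered 58 against 22 (2.64 times). The ratio was lower for runs of 9 (20 against 10.2, 1.95 times) and of 10 (11 against 4.8, 2.29 times), higher for runs of 11 (9 against 2.27, 3.97 times) and lower again for runs of 12 (2 against 1.08). In all, 27 runs held 10 or more peaks. The longest run held 16. On each of the 22 chromosomes the number of runs was above the order mean of that chromosome, by the least on chromosome 16 (1 run against 0.952).

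**Figure D1:**
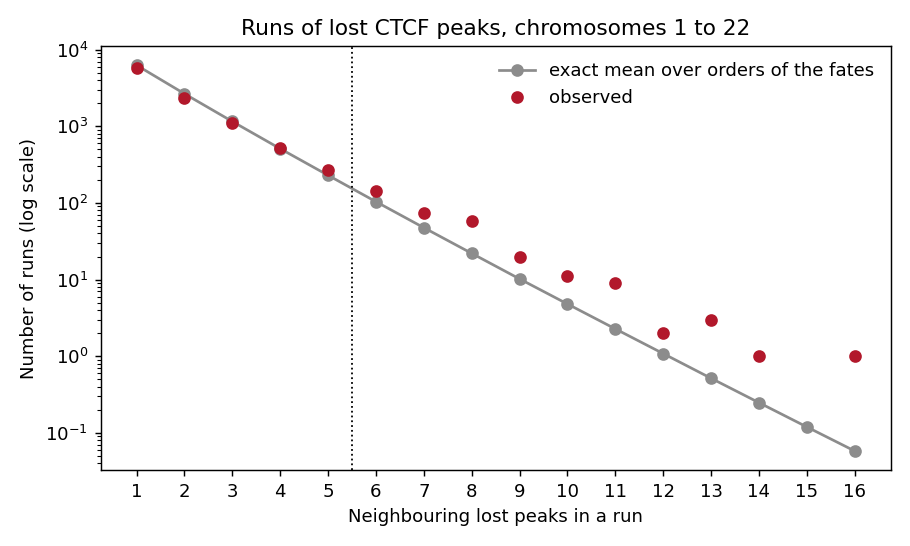
Number of runs (log scale) against the number of neighbouring lost peaks in a run, for the observed lists (red) and for the exact mean over all orders of the fates within chromosomes (grey); the dotted line marks the rule of 6 or more. The red points lie under the grey line at 1 and 2 peaks and above it from 5 peaks on, with no run of 15.

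A run spanned a median of 426.25 kb, with quartiles of 263 kb and 686 kb, from 34.8 kb on chromosome 11 to 2527.6 kb on chromosome 3, and all runs together covered 173 Mb. Within 281 of the runs no treated peak lay between the members, and the other 43 held 46 treated peaks. By the rule these could not overlap a control peak, since every control peak inside a run was lost. Of 2125 sites that the authors' direct comparison places higher in treated cells on these chromosomes, 14 lay inside a run. This count was not set against the share of the genome in runs. It is also partly set by the rule, which leaves kept peaks out of runs. Every control peak at such a site was a kept peak. Kept peaks at the ends of a run were stronger than its members: the mean fold of the flanking kept peaks was above the median fold of the run in 301 of 324 runs, with medians over runs of 32.7 and 21.2. Kept peaks were also stronger than lost peaks over the whole list.

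The authors' direct comparison of the conditions used the same libraries as the lists from which the members were chosen, and its sites are given here as a description. A site higher in control cells overlapped 1936 of 2334 members (82.9%), 77.7% of other lost peaks and 51.2% of all control peaks. In the weakest decile of control fold, such a site overlapped 54% of members and 45% of other lost peaks. In 90 runs every member lay at such a site, and no run was without one. These counts of runs were not set against what the share of 82.9% among members alone gives. No member overlapped a site higher in treated cells, and neither did any of the 17315 other lost peaks; the 2.44% of all control peaks at such a site were kept peaks.

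The longest run lay at chr5:74561501-75442050 and held 16 lost peaks over 880.6 kb. Among the genes it overlapped were CERT1, which carries ceramide from the endoplasmic reticulum to the Golgi, POLK, a DNA polymerase of lesion bypass, ANKDD1B, POC5, a centriole protein, and SV2C, a protein of synaptic vesicles. In order of position, the control folds of the first 4 peaks were 45.3, 12.1, 16.8 and 18.9. The next 6 peaks had folds of 15.1, 12.4, 9.37, 19.6, 11.5 and 9.89. The last 6 had folds of 30.5, 46.1, 12.3, 15, 29.3 and 18.6. The median fold of the run was 15.9, below the medians of all members (21) and of other lost peaks (20.2). A few strong peaks lay among the weaker ones, and the first and 12th peaks of the run were in the top 2 deciles of control fold. Of the 16 peaks, 15 lay at a site higher in control cells. The kept peak before the run was 29 kb away with a fold of 40, and the one after it was 29.1 kb away with a fold of 27.7.

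**Figure D2:**
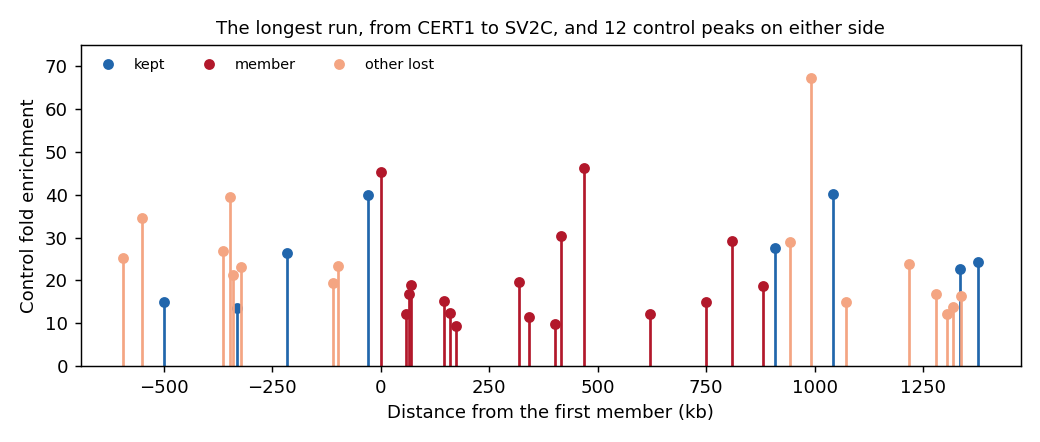
Control fold enrichment of each control peak in the longest run (dark red), in kept peaks (blue) and in other lost peaks (pale) against the distance from the first member in kb, with 12 control peaks on either side. The 16 members run without a kept peak over 880.6 kb. Their folds, 9.37 to 46.1 with a median of 15.9, overlap those of the kept peaks next to the run, 40 and 27.7.

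The second run by length, at chr4:33091501-35353100, held 14 peaks over 2261.6 kb without any protein-coding gene, with folds from 12.8 to 35.4 and a median of 23.6. Its neighbouring peaks lay a median of 186.5 kb apart. The next 3 runs held 13 peaks each. At chr1:190290151-192332600 the run covered BRINP3, a gene expressed in the nervous system, and RGS18 and RGS21, regulators of G protein signalling, with folds from 11.3 to 52.6, and 8 of its 13 peaks matched the consensus within 1 mismatch. At chr5:109026701-109926250 the run covered MAN2A1, a mannosidase of the Golgi, and TMEM232, with folds from 9.06 to 48.9. At chr8:131217901-131616800 it covered part of ASAP1, a GTPase-activating protein for Arf, with folds from 6.94 to 32.3, and 7 of its 13 peaks lay at a site higher in control cells.

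Runs of 12 peaks were found in 2 places. At chr1:152890401-153250700 the run lay across the small proline-rich genes SPRR5 to SPRR2G, LELP1, PRR9 and LORICRIN, which encode proteins of the cornified envelope of the epidermis, and none of its peaks was centred within a protein-coding gene. Its folds ranged from 11.4 to 51.5, and the kept peaks beside it had folds of 39 and 59. At chr13:39586851-40176950 the run covered PROSER1, NHLRC3 and LHFPL6. Its median fold was 27.2, and 4 of its peaks were in the top 2 deciles of fold.

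Runs of 11 peaks numbered 9, and the 5 described here are the first by chromosome and position; those at NRG1, at AUH, NFIL3 and ROR2, at GRID1 and at PCDH9 were as long, with median folds of 28.8, 26.9, 22.4 and 20.9. At chr3:18889051-19298050 the run led into KCNH8, a voltage-gated potassium channel, with folds from 12.6 to 38.8. PRICKLE2, a planar cell polarity gene, lay in the run at chr3:64060401-64385250, with folds from 10.6 to 34.7. At chr5:83551201-85975600 the run reached from EDIL3, an integrin ligand of the extracellular matrix, to COX7C, a subunit of cytochrome c oxidase, and all 11 of its peaks lay at a site higher in control cells. The run at chr5:99814851-100926350 covered FAM174A and ST8SIA4, a polysialyltransferase. The run at chr7:83730301-84650750 covered the secreted guidance proteins SEMA3A and SEMA3D, with folds from 7.97 to 21.7, and the kept peaks beside it were weak too, at 17 and 19.3.

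**Figure D3:**
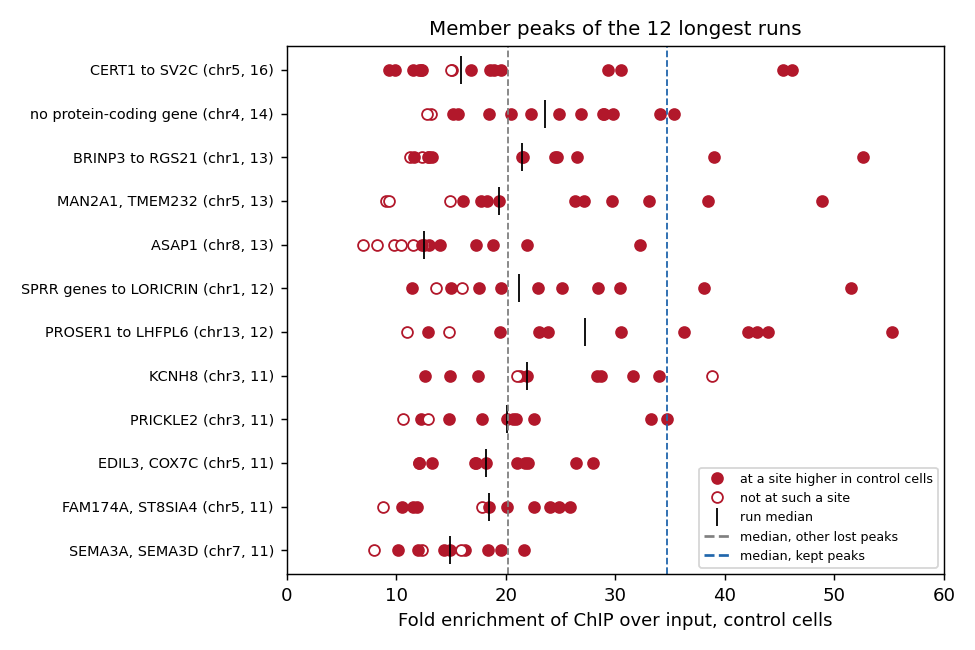
Control fold enrichment over input (horizontal axis) of each member in the 12 longest runs (ties at 11 peaks taken by position, which leaves out 4 runs), with the genes, the chromosome and the number of peaks on the vertical axis; filled points lie at a site higher in control cells, ticks are run medians, and dashed lines are the medians of other lost peaks (20.2) and of kept peaks (34.7). All run medians lie under that of kept peaks, while single members reach 55.3.

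In 7 places a kept peak was all that separated a pair of runs. The longest such pair, at chr10:86579951-87611150, held 18 lost peaks around a kept peak of fold 15 and reached into GRID1. At chr1:81395951-82274800 there were 16 lost peaks around a kept peak of fold 37.9 in an intron of ADGRL2. The others held 15 lost peaks on chromosome 18 and 14 on chromosome 4, both without a protein-coding gene. A further pair held 13 on chromosome 2, of which 1 lay in TMEFF2. The last pairs held 12 at EDAR and SH3RF3 and 12 at FIGN. The kept folds of these other pairs were between 18.5 and 40.1.

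Counted by gene, 473 of 14588 protein-coding genes with a control peak in their body or within 10 kb had a member there (3.24%). The runs overlapped 529 protein-coding genes. There were 64 runs that overlapped none, 131 that overlapped 1 and 129 that overlapped 2 or more. The gene with the most members was GRID1, a delta-type glutamate receptor, with 11 members among 18 control peaks in its body. The members in GRID1 had folds from 11.2 to 30.4, and its 6 kept peaks had folds from 29.4 to 50.9. In PRICKLE2, 10 of 10 control peaks were lost, all of them members, with folds from 10.6 to 34.7. In AUTS2, a gene of neural development, 8 of 8 control peaks were lost and were members, with folds from 12.7 to 32.6. These genes had no kept peak in their body.

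NRG1, a ligand of ErbB receptors, had 10 members among 15 control peaks, with folds from 17.2 to 43.5, and all 10 lay at a site higher in control cells. Its 4 kept peaks had folds from 32 to 38.2, within the range of its members. CTNNA3, an alpha-catenin, had 9 of 19. The others were ADGRL2, an adhesion receptor, with 8 of 10, CACNA2D3, a subunit of calcium channels, with 8 of 15, TENM2, a teneurin of the cell surface, with 8 of 24, and ASAP1 with 8 of 10. In TENM2 no member matched the consensus within 1 mismatch. The genes named in this and the preceding paragraph were from 353.2 kb (PRICKLE2) to 1851.2 kb (CTNNA3) long.

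Long genes held more members in general. Of control peaks in genes under 50 kb, 1.46% were members (Wilson 95% interval 1.2% to 1.78%). The share was 2.71% in genes of 50 to 200 kb, 6.45% in genes of 200 to 500 kb and 10.4% (9.37% to 11.5%) in genes of 500 kb and over. The lost share rose beside it, from 32.3% to 53.5%.

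Gene families were read against 3.78% of peaks being members over all protein-coding genes with 10 kb on either side. Among glutamate receptors, whose genes are long, 21 of 122 peaks were members (17.2%), in 3 of 24 genes with a peak, which were GRID1 with 11, GRIA1 with 6 and GRIK2 with 4. FGF ligands and receptors had 8 of 54, of which 7 lay at FGF14. A list of semaphorins, ephrins and their receptors, which also took in SLIT3 although it is none of these, had 14 of 291 (4.81%). In that list SLIT3 gave 6 members and SEMA3A 5. Potassium channels had 15 of 317 (4.73%), cadherins and protocadherins 10 of 226 (4.42%), led by PCDH9 with 7, and collagens 7 of 164 (4.27%). These shares lay near that of all genes. GABA receptors had 3 of 38, all at GABRA2, contactins 2 of 44, both at CNTN3, and Wnt ligands and receptors 1 of 48, at FZD7.

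The other families are given by their counts, which are small and were not tested against the share over all genes. Zinc-finger genes had 9 of 420 peaks as members (2.14%), olfactory receptors 3 of 97 (3.09%) and mitochondrial ribosomal proteins 2 of 136, both at MRPL1. No member lay at HOX genes (34 peaks, 9 of them lost), keratins (37 peaks), ribosomal proteins (120 peaks, 35 lost) or proteasome subunits (62 peaks, 22 lost).

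Strong members showed that a run can take in peaks near the top of the list, and 4 of the 5 strongest are given here. An intergenic peak 75097 bp from a start site, with LRRCC1 as the nearest gene, had a fold of 64.8, above 98.4% of control peaks. An intronic peak of SENP7, a SUMO protease, had 64.7, a peak near SULT1E1, an estrogen sulfotransferase at the end of a run of 7 over the UGT2B genes of glucuronidation, had 64.5, and the first peak of a run of 10 that covers PID1, intergenic and 219498 bp from the start site of SPHKAP, had 64. All 4 lay at a site higher in control cells. The peaks at SENP7, SULT1E1 and SPHKAP had these best matches, with 2, 1 and 1 mismatches, shown because only 7.38% of control peaks in the top decile of fold were lost.
SENP7 intron, chr3:101100860-101100889: tatagacttCCAACAGAGGGAgcccaaagc
near SULT1E1, chr4:70747070-70747099: tgaaatgtgCCACTAGAGAGCagcaggata
between SPHKAP and PID1, chr2:229265883-229265912: ggctgctatTCAGTAGATGGCgcttaaaag
Of the members, 117 were in the top 2 deciles of control fold (5.01%), spread over 94 runs, and 846 were in the lowest 2 deciles (36.2%).

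In strength, members resembled the other lost peaks. Their median fold was 21 (95% interval of the median 20.7 to 21.4), against 20.2 (20 to 20.4) in the 17315 other lost peaks and 34.7 in the 26405 kept peaks. The median widths were 225 bp, 200 bp and 350 bp in this order. A control FDR of at most 1e-05 was held by 52.7% of members, 49.6% of other lost peaks and 90.4% of kept peaks. Of the lost peaks of a decile of control fold, between 10.8% and 16.1% were members, without a steady trend. The share was 10.8% in the weakest decile, 16.1% in decile 7 and 12.4% in the strongest. The lost share itself fell from 88.4% in the weakest decile to 7.38% in the strongest. Weak and strong lost peaks thus entered runs at shares of the same order. The 870 peaks in runs of exactly 6, just inside the rule, had a median fold of 20.8, and the 1345 peaks in runs of exactly 5, just outside it, had 19.8.

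In their sequence at the site, members were likewise close to other lost peaks. The consensus was matched within 1 mismatch in 32.8% of members (30.9% to 34.8%), in 31% of other lost peaks (30.3% to 31.7%), in 62% of kept peaks and in 48.8% of all control peaks. Windows 10 kb to either side of the members had a match in 1.24% and 1.84% of cases, so a match was far more frequent in members than beside them. Of the runs, 299 of 324 held at least 1 member with a match, a count not set against what the share of 32.8% among members alone gives.

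In the DNA around them, members lay lower in GC content and farther from genes than other lost peaks as a whole, with the peaks just outside the rule in between or close to those just inside it. Median GC content over 500 bp was 40.4% (40% to 40.8%) in members, 43.4% in other lost peaks and 48.2% in kept peaks. Over the surrounding 100 kb it was 38.4%, 41.4% and 43.8%. Members of a run share their surroundings, so the peaks are not independent and these intervals are too narrow. The members lay a median of 84075 bp from the nearest start site of a protein-coding gene (quartiles 22643 bp and 257276 bp), against 30308 bp for other lost peaks and 19600 bp for kept peaks. No start of a protein-coding gene lay within 500 kb of 16.2% of members, against 5.57% of other lost peaks and 3.35% of kept peaks. The nearest control peak was 23775 bp away for members and 15800 bp for other lost peaks. In runs of exactly 6 against runs of exactly 5, GC content over 500 bp was 40.9% (40.2% to 41.2%) against 41.2% (40.8% to 41.8%), and over 100 kb 39% against 39.5%. The start site was 66484 bp against 52656 bp away and the nearest control peak 20512 bp against 21000 bp, and 12.6% against 9.22% had no gene start within 500 kb.

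Members lay between genes in 41.2% of cases and in introns of protein-coding genes in 41%, where other lost peaks had 33.6% and 47.6%. Within 1 kb of a start site lay 97 members (4.16%), 7.27% of other lost peaks and 12% of kept peaks. In runs of exactly 5 the share within 1 kb of a start site was 5.43%, against 4.83% in runs of exactly 6.

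The same held at like strength. Within deciles of control fold, the median GC content of members was below that of other lost peaks in 10 of 10 deciles. The mean difference was -3.06 percentage points, with each decile weighted by its number of members. The median distance to a start site was greater in 10 of 10, by 52385 bp on average with the same weights. The share with a consensus match was higher in 9 of 10 deciles, by 1.49 percentage points with these weights. By chromosome, among the 21 with at least 10 members, members had the lower GC content on 20, all but chromosome 15, and lay farther from start sites on 21. Their fold was the lower on 7 of the 21 and their consensus share on 8. The rule asks for neighbouring lost peaks. Of control peaks, 61.5% were lost in the lowest decile of GC content over 100 kb and 22.2% in the highest. The rule thus favours surroundings of low GC content, and splitting the peaks by fold does not remove this.

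**Figure D4:**
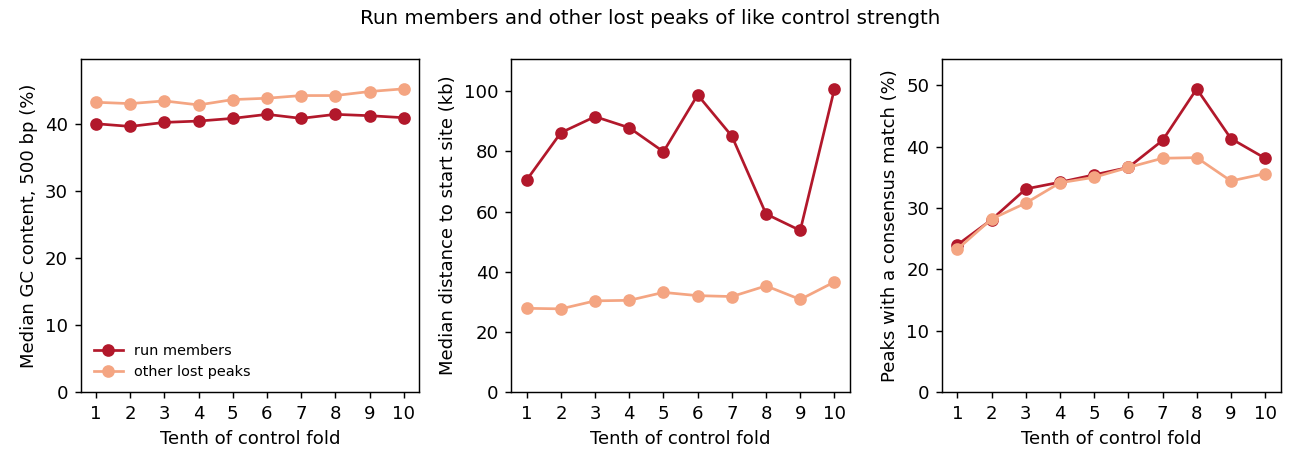
Median GC content over 500 bp (%), median distance to a start site (kb) and share of peaks with a consensus match (%) by decile of control fold, from the weakest (1) to the strongest (10), for run members (dark red) and other lost peaks (pale). Members lie lower in GC content and farther from start sites in all 10 deciles, and the consensus shares run close together except in deciles 8 and 9, which hold 89 and 75 members.

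Placed by surroundings, runs gathered where GC content was low. In the decile of control peaks with the lowest GC content over 100 kb, from 32.4% to 36.8%, 749 of 4608 peaks were members (16.3%). The share was 4.01% in decile 5 and 0.0217% (1 peak of 4606) in the highest. The share of lost peaks fell along with it, from 61.5% to 22.2%, and the part of lost peaks that lay in runs fell from 26.4% to 0.0979%.

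**Figure D5:**
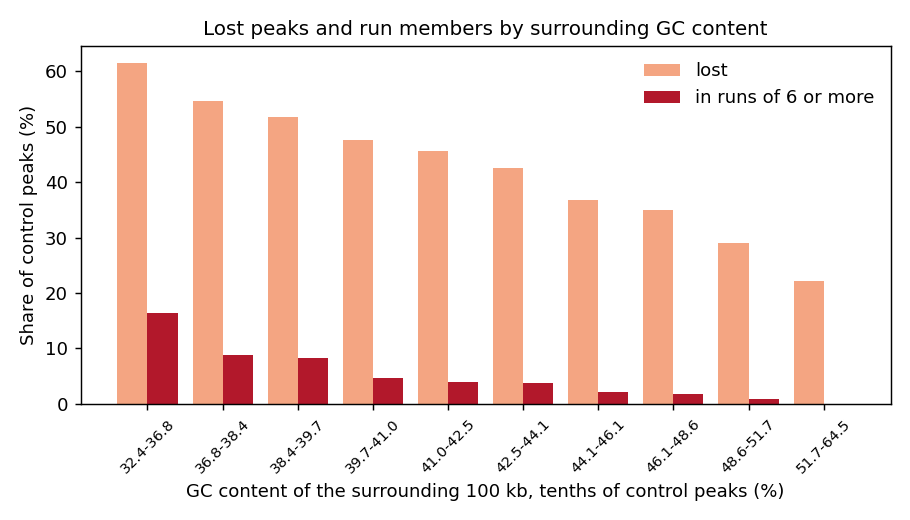
Share of control peaks (%) that were lost (pale bars) and that were members of runs (dark red bars), by decile of GC content in the surrounding 100 kb (range of each decile in %, lowest at the left). Lost peaks fall from 61.5% to 22.2% and members from 16.3% to 0.0217%.

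By chromosome, members were from 0.564% of control peaks on chromosome 16 to 10.4% on chromosome 13, with 9.09% on chromosome 4. The number of runs was highest on chromosome 2, with 36 against an order mean of 19.7. Chromosome 19, where 21.1% of peaks were lost, had 3 runs against 0.107. These were looked at after their number was seen. At 23065701 to 23623950 a run of 7 peaks lay among zinc-finger genes including ZNF91, 6 of its 7 peaks had a consensus match, its folds kept between 25.4 and 30.5, and 1 of its peaks lay at a site higher in control cells. At 32809851 to 33061500 a run of 7 at ZNF507 and DPY19L3 had folds from 13 to 47.4, and all 7 peaks lay at such a site. At 31459201 to 31829300 a run of 6 at TSHZ3 had folds from 12.4 to 32.7. Zinc-finger clusters hold similar sequences, and the part of reads shared between copies was not tested.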

How the data were processed

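CTCF ChIP-seq of HT1080 cells was available as 4 peak lists. Per the labels and the study's methods, the authors mapped reads to hg19 with Bowtie2 2.2.3, removed multiply mapped and duplicate reads with SAMtools 1.5, and called peaks with PePr on both replicates of a condition together; the labels describe paired-end and the methods single-end sequencing. Per the deposited values, each list holds a fold enrichment, which is a ratio of ChIP over input computed by the authors, with a p-value and an FDR, and a score that was not used. In the other 2 lists the authors compared the conditions directly; only the positions of those sites were used, not the deposited fold or p-value. Depth per library was not used here, which leaves the precision of single peaks unknown.

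Peaks on chromosomes 1 to 22 were placed on GRCh37 with GENCODE v44lift37 genes, and no control peak lay beyond a chromosome end. Overlap was at least 1 bp. GC content was taken over 500 bp and 100 kb around the centre, and the consensus core over 400 bp. Mean numbers of runs were computed exactly, without resampling. Named were the 12 longest runs (ties by chromosome and position), the 10 genes with most members, the 5 strongest members and up to 4 genes of each of 16 families (by symbol); genes named otherwise are stated to be chosen after their values were seen, were those at kept peaks between runs, or lie beside a named peak. Some items that this rule names are not reported here. The members and lists were chosen with earlier results of these data known. Routines were tested on simulated data. Python 3.11.15, numpy 2.4.6, pandas 2.3.3, pysam 0.24.0 and samtools 1.23.1 were used. Alternatives covered the overlap rule, list thresholds, run length, gaps, merging and windows.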

Additional observations from a re-analysis of the deposited data

How the results depend on the processing

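No paired analysis was possible because both replicates of a condition enter a peak list together, and an analysis without a replicate could not be run either. The number of runs was above its mean in 13 of 13 alternatives, which largely reuse the same peaks. In the settings by decile of fold, that mean came from lost shares and not from orders. The spread of the count around the mean was not computed, so whether a small ratio lies beyond it is unknown. Compared with other lost peaks, members had the lower GC content in 11 of 11 alternatives, the higher fold in 9 of 10 and the higher consensus share in 10 of 12. The ratio of runs to the mean fell from 1.68 to 1.08 when the deciles of fold and of GC content were kept, a setting chosen after seeing the data, and was 2.54 for runs of 8 or more. Counting a peak as kept only when over 50% of the larger peak overlapped gave 602 runs with 4522 members. Control peaks with an FDR of at most 1e-05 gave 47 runs with 323 members, a median fold of 24.9 and a GC content of 38.6%. Treated peaks with an FDR of at most 1e-05 gave 911 runs with 7265 members, a fold of 22.3, a GC content of 41.2% and a consensus share of 36.9%. Control peaks of at least 10-fold enrichment gave a median fold of 21.7. Runs of 5 or more numbered 593 with 3679 members and a fold of 20.6, and runs of 8 or more 105 with 946 members. GC content of the peak itself was 42.8%, and the consensus share was 3.98% with 0 mismatches and 74.6% with 2. Breaking runs at treated peaks or at gaps over 1 Mb, centres within 1000 bp, merging peaks within 5 kb and adding chromosome X, which was chosen after seeing the data, left the number of runs within 1.5 times. The cause of these shifts was not tested beyond the fewer or more peaks that each setting leaves.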
